A study of Homo sapiens with 12 samples.

Results

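The 60 genes described here are spread along the long arm of chromosome 15 (15q), from SNHG14 near the centromere to CHD2 near the far end. They were selected on the difference between R2 and control, because most genes of the arm were lower together in R2, and on the contrast with R1, where a shorter stretch was said to be lower. All 60 were found, among 12931 listed genes of the series and 389 listed genes placed on chromosome 15. Because the differences between R2, R1 and control chose the members, their values are given as a description and carry no test.

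Chromosome 15 is acrocentric, so that nearly all of its protein-coding genes lie on the long arm. Near the centromere the arm holds the imprinted 15q11-q13 domain, whose genes are transcribed according to the parent that transmitted the copy. SNHG14 and SNRPN are known to be transcribed from the paternal copy alone, while UBE3A is transcribed from both copies outside neurons, and in neurons the far end of SNHG14 runs antisense to UBE3A and is linked to silencing of its paternal copy. The rest of the arm is not imprinted in this way, and its genes serve unrelated tasks. When a cell carries fewer copies of a chromosome arm, the transcripts of many of its genes are known to be lower together. DNA copy number was not analysed here.

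WM1366 is an established human melanoma cell line, and the samples are described as RNA of WM1366 xenograft tumours that were progressing. There were 3 groups of 4 libraries: a control diet group, and the groups R1 and R2, both on the diet with a MEK and a CDK4/6 inhibitor. MEK is a kinase of the RAS-RAF-MEK-ERK pathway, and CDK4 and CDK6 drive entry into the cell cycle. Nothing in the labels tells R1 and R2 apart beyond the name, nor whether replicates are separate tumours, cultures or libraries, so p-values measure the spread between these libraries, which may be technical. The treatment text gives palbociclib (a CDK4/6 inhibitor) at 0.1 uM and PD0325901 (a MEK inhibitor) at 1 nM for every sample, the controls included, and the source is given as metastatic melanoma cells. They therefore leave unclear whether a library came from a tumour or from cultured cells. How reads of a mouse host would have been treated is not given in the sources used here.

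Depth was 20003891 to 39009384 reads in listed genes per library. Of the 10 melanoma lineage markers, 3 were listed: MITF stood at 42.1 to 59.95 in control, 15.3 to 29.1 in R1 and 27.6 to 33.5 in R2, PMEL at 4.05 to 6.72, 22.4 to 35.7 and 6.75 to 12.5, and PAX3 at 8.89 or more in every library. MLANA, TYR, DCT, TYRP1, SOX10, S100B and S100A1 are not among the listed genes. Of the leukocyte and macrophage markers 1 of 11 was listed (CSF1R), of the endothelial markers 4 of 8, of the fibroblast and pericyte markers 4 of 9 and of the keratinocyte markers 1 of 6.

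Values are the authors' normalised signal, which is reads scaled to library size, and a log2 fold change is a difference of group means of log2(value + 0.5). In R2 against control, 57 of the 60 members had a log2 fold change below 0. The median was -0.79 (quartiles -1.01 and -0.58), beside 0.03 over all listed genes. By ratio of means the median member stood at 57.7% of control, and 47 of 60 members lay between 40 and 70% of it, where 8.87% of genes off chromosome 15 lay. A gene was called lower or higher at an adjusted p under 0.05 in limma over all 12931 genes. By that rule 52 members were lower and 1 was higher (NEO1), beside 14.8% of all genes lower and 13.6% higher. Every R2 library was below every control library for 52 members, beside 16.8% of all genes, and every R2 library was above every control library for 2 (KLF13 and NEO1), beside 18.0%. Nothing is read from these counts, since the comparison chose the members. The call as lower was lost for AKAP13, MYO1E, CLN6, CTDSPL2 or HERC2 when certain single libraries were left out.

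In R1 against control the median log2 fold change of the members was -0.27, beside 0.01 over all genes. The median member stood at 84.2% of control. The rule called 25 members lower and 4 higher (UBE3A, KLF13, NEO1 and SEC11A), beside 21.4% of all genes lower and 22.4% higher. For 24 members every R1 library was below every control library, beside 19.0% of all genes. R1 and R2 were set against the same 4 control libraries.

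Set directly against R1, R2 had the lower mean for 55 of the 60 members. The exceptions were MTMR10, CTDSPL2, TPM1, PIAS1 and NEO1. The median log2 fold change of R2 minus R1 was -0.42. Of the members 32 were called lower and 2 higher (TPM1 and NEO1), beside 24.0% of all genes lower and 22.8% higher. For 27 members every R2 library lay below all 8 libraries of the other groups, beside 7.92% of all genes.

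**Figure D1:**
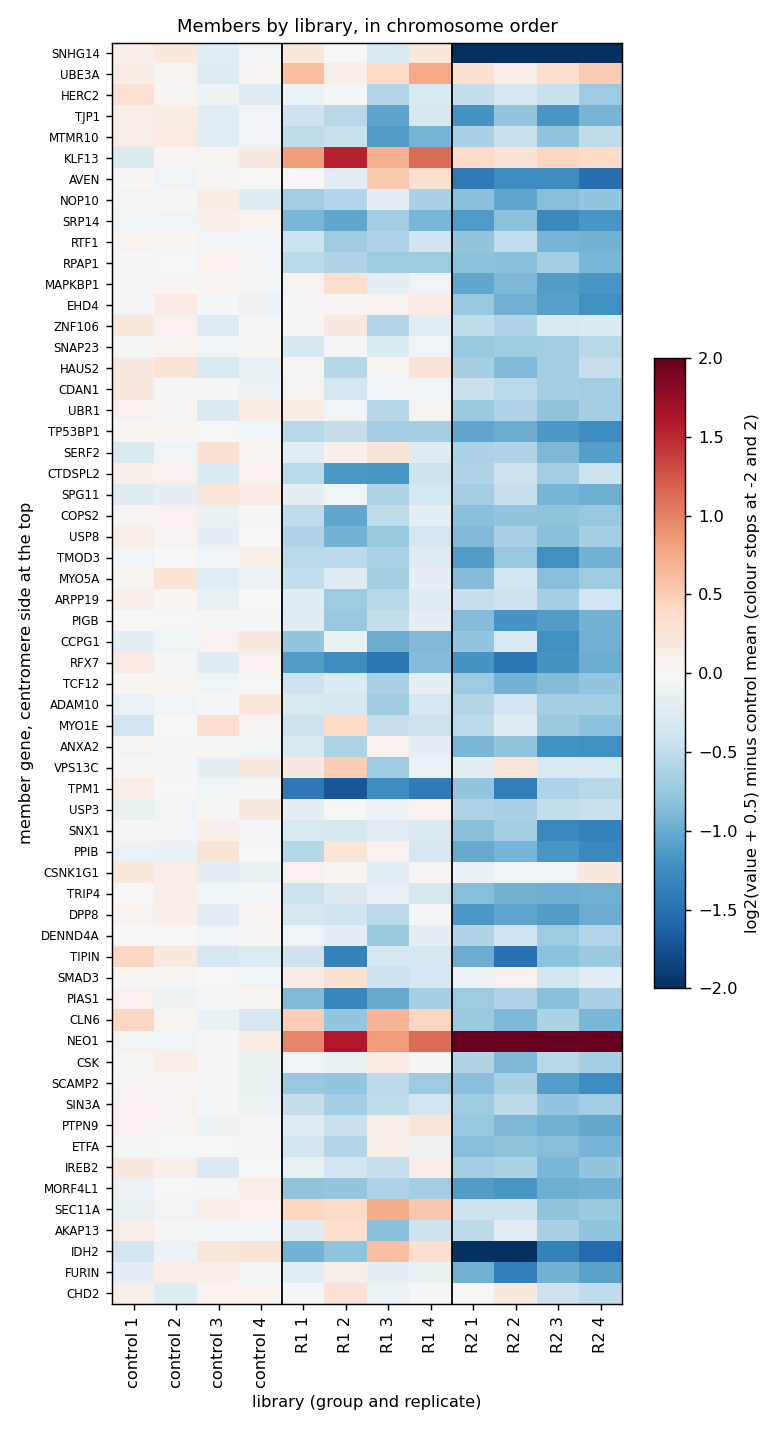
Heat map of the 60 members (rows, in chromosome order) in 12 libraries (columns); colour is log2(value + 0.5) minus the control mean of the gene, and stops at -2 and 2. The 4 R2 columns are blue for nearly all rows; SNHG14 is the darkest blue row of R2 and NEO1 the darkest red, and R1 is a mixture of paler blue and red.

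Each library of R2 showed the lower level by itself. The median member lay -0.76 ± 0.07 (SD, n = 4) from its control mean on the log2(value + 0.5) scale in R2 libraries, with a range of -0.84 to -0.67. In R1 libraries it lay -0.33 ± 0.11 from it, with a range of -0.48 to -0.20, and in control libraries between -0.04 and 0.06. Between 54 and 57 members were under their control mean in each R2 library, 43 to 45 in each R1 library and 22 to 38 in each control library. The ranges of the groups did not overlap. Reads on chromosome 15 made up 2.85% ± 0.110 of all listed reads in control, 2.60% ± 0.0245 in R1 and 1.74% ± 0.0647 in R2 (SD, n = 4 each).

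Some whole-library measures differed between the groups as well. Mitochondrial genes took 5.86 to 10.9% of reads in control, 4.02 to 9.63% in R2 and 2.17 to 3.28% in R1. These reads are part of the total in the chromosome 15 shares above, so the smaller mitochondrial share raises the R1 value there. The summed melanoma markers were 58.4 to 74.7 in control, 57.5 to 77.5 in R1 and 47.8 to 50.5 in R2. CSF1R was 1.12 to 3.18 in control, 1.39 to 6.19 in R1 and 0.349 to 0.688 in R2. The summed endothelial markers were 133 to 172 in control, 375 to 499 in R1 and 126 to 157 in R2, the fibroblast and pericyte markers 232 to 327, 84.7 to 154 and 100.1 to 331, and KRT10 16.0 to 18.5, 23.0 to 34.7 and 13.8 to 21.7. The part of these measures in the level of 15q genes was not tested. Most members kept part of their control level in R2. For such genes, bulk RNA cannot tell a lower level in all cells from a larger drop in a share of the cells.

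The members behaved like the rest of their chromosome. The arm itself was chosen because most of its genes were lower in R2, so its values and rank are a description. The other 329 listed genes of chromosome 15 had a median log2 fold change of -0.75 in R2, with 253 called lower and 9 higher, and of -0.22 in R1, with 113 lower and 42 higher. Over all 389 genes of the chromosome, 78.4% were called lower in R2 and 35.5% in R1. Of 23 chromosomes, 15 had the lowest median in R2 at -0.76, and the next was chromosome 12 at -0.30. In R1, chromosome 15 had a median of -0.23, behind chromosome 18 at -0.32 and chromosome 16 at -0.24. A second stretch with low values lay on 17p: of 203 genes that end before 22 Mb on chromosome 17, 178 were called lower in R2 (median -0.87) and 142 in R1 (median -0.73). Chromosome 17 as a whole had a median of -0.11 in R2.

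**Figure D2:**
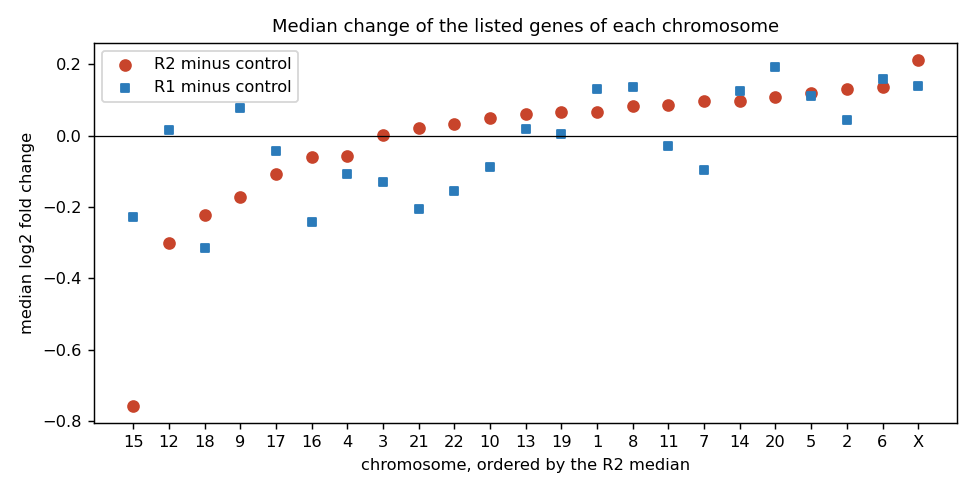
Median log2 fold change of the listed genes of each chromosome, R2 minus control (circles) and R1 minus control (squares), with chromosomes ordered by the R2 median. Chromosome 15 stands at -0.76 in R2, apart from chromosome 12 at -0.30, while its R1 value of -0.23 lies among those of chromosomes 16 and 18. Its long arm was chosen as low in R2, so this place is a description.

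Along the arm, the lower level in R2 was not limited to one stretch. In windows of 5 Mb (GRCh38), 16 of 17 had a median log2 fold change below -0.4 in R2, and the share of genes called lower was above the 14.8% of all genes in all 17. The exception by median was the window nearest the centromere, from 20 to 25 Mb, at 0.56. Of its 10 genes, 6 were called higher and 4 lower, with SNHG14 and a low row of HERC2P2 among the 4. The selection named R1 as lower over a short part alone. The share called lower in R1 was above its 21.4% over all genes in 15 of 17 windows, but in some by few genes and with a median near 0: 2 of 8 genes from 35 to 40 Mb (median 0.02), 5 of 20 from 85 to 90 Mb (-0.02) and 3 of 9 from 95 to 100 Mb (0.04). A median below -0.4 in R1 was found in 1 window, from 55 to 60 Mb, at -0.44, where 15 of 23 genes were called lower. The 2 windows not above the R1 share were the first (0 of 10 genes) and the last (1 of 9). Over the 59 members other than SNHG14, the log2 fold change in R2 had no clear course along the arm (Pearson r = -0.03, Spearman rho = -0.03, a description across genes that share the same libraries).

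**Figure D3:**
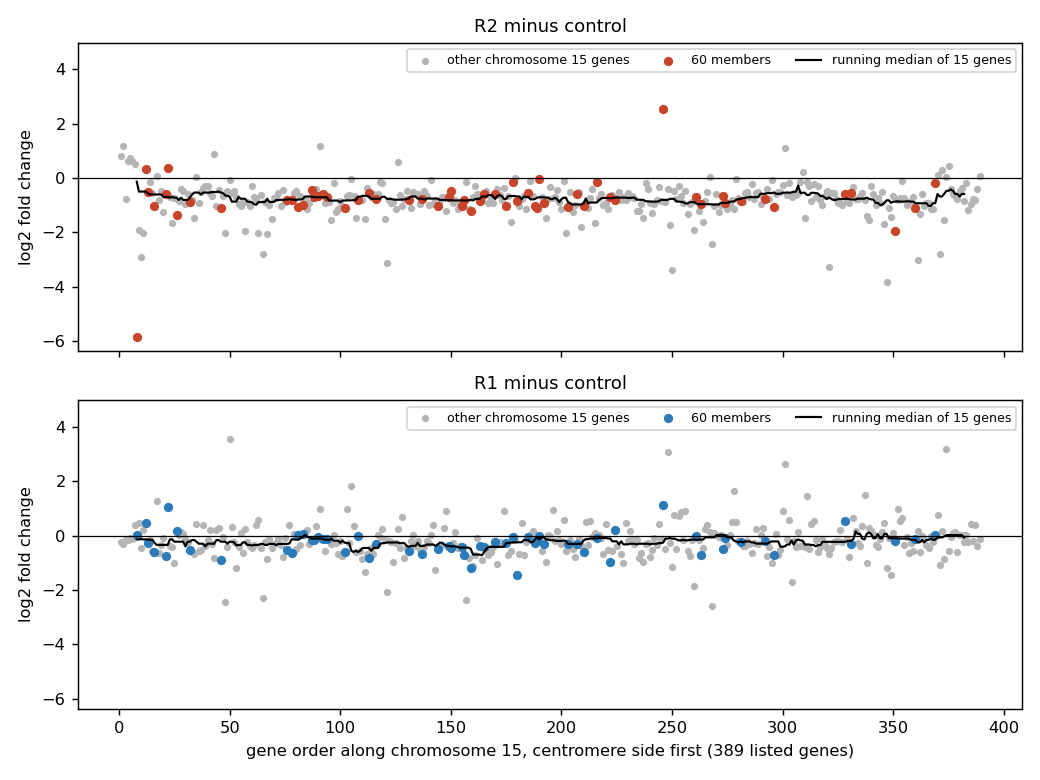
Log2 fold change of 389 listed genes against their order along chromosome 15, centromere side first, for R2 minus control (top) and R1 minus control (bottom). Coloured points are the 60 members, grey points the other genes and the line is a running median of 15 genes; it stays below 0 nearly throughout in R2 after the first genes, and nearer to 0 in R1.

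The most extreme member in R2 was SNHG14, a long noncoding RNA and the host of many small nucleolar RNAs, at chr15:24823608-25419462 on the plus strand. It stood at 32.3, 34.5, 25.6 and 29.1 in control, 34.5, 30.1, 24.5 and 35.0 in R1 and 0.0291, 0.0465, 0 and 0.0459 in R2. The R2 values come from 3 reads over 4 libraries, against 2739 reads in control, and the pooled control level was 1127 times that of R2 (95% Clopper-Pearson interval 385 to 5469, counting error only). R1 and control overlapped, and no R2 library came near either.

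Genes inside the transcribed span of SNHG14 followed the same pattern in R2. SNRPN, which encodes a spliceosomal protein and is likewise paternally expressed, starts 29 bases downstream of SNHG14 in RefSeq. It had 125 reads in control and 0 in R2, which is at least 51.4-fold lower, counting 3 reads over the group as the floor. PWAR5 had 310 reads in control and 0 in R2 (at least 128-fold lower), and PWAR6 had 147 and 2 (ratio 90.7, 95% interval 24.7 to 756). These noncoding RNAs were chosen after their values were seen, and since SNHG14 overlaps SNRPN, PWAR5 and PWAR6, their reads and those of SNHG14 are not independent. Of 9 imprinted genes of the domain looked for, 3 were listed (SNHG14, SNRPN and UBE3A).

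UBE3A, the ubiquitin ligase altered in Angelman syndrome, lies at chr15:25333728-25439056 on the minus strand and was not lower. It stood at 63.2, 59.2, 47.8 and 59.8 in control, 87.0, 61.9, 74.6 and 96.8 in R1 and 70.8, 62.6, 73.0 and 81.4 in R2. Its lowest R2 library was just under the highest control library, and the other three R2 libraries were above all controls. SNHG14 and UBE3A overlap on opposite strands over 85735 bases, and the TruSeq v2 kit does not mark the strand, so reads of the shared stretch cannot be told apart. The counting rule for such reads is not given in the sources used here.

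The 250 bases before each start in the RefSeq promoter table are shown for the RNA that was nearly lost in R2, for its overlapping neighbour that was not, and for NEO1, the member that was highest in R2. They are the reference sequence from RefSeq (GRCh38.p14), written in the direction of transcription from 5′ to 3′, with each CG dinucleotide (CpG, the site of DNA methylation) in capitals. The SNHG14 window is chr15:24823358-24823607 (plus strand), the UBE3A window chr15:25439057-25439306 (minus strand) and the NEO1 window chr15:73051652-73051901 (plus strand). The table's start for NEO1 lies downstream of the start of the annotated gene, so that 210 of its 250 bases fall inside the gene. For genes with several starts in the table, the start nearest the annotated gene start was used. No other start was examined, for SNHG14 included. No methylation was measured.
SNHG14: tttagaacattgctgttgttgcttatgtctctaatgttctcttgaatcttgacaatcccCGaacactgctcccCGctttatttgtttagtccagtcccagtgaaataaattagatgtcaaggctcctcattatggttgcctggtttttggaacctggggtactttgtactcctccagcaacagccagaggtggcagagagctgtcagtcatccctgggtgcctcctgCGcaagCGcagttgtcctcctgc
UBE3A: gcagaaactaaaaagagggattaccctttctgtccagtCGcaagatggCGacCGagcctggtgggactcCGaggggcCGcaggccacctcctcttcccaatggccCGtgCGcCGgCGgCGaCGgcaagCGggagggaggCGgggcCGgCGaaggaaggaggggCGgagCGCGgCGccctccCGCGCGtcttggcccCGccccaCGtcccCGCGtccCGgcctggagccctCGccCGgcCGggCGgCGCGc
NEO1: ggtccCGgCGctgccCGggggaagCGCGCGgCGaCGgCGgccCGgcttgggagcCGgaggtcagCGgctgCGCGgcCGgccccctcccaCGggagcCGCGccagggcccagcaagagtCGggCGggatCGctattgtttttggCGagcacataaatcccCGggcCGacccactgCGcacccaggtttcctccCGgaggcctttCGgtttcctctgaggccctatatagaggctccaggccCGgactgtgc

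The SNHG14 window held 4 CpG and a GC content of 48.4%, the UBE3A window 33 and 74.4%, and the NEO1 window 28 and 71.6%. A window was found for 57 of the 60 members, with a median of 21 CpG (quartiles 15 and 27), the same as the median of 21 over 9925 listed genes. GGGCGG, the GC box, searched on both strands, was in 66.7% of member windows and 67.8% of those of listed genes. CCAAT, on both strands, was in 35.1% and 35.7%. TATAAA, on both strands, was in 7.02% and 5.06%. Over one window for each of 27305 genes of the RefSeq table the median was 10 CpG, and the 3 motifs, in the order given, were in 42.2%, 33.0% and 11.2%. By these measures the windows of the members were close to those of other listed genes.

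On the centromere side of SNHG14 the direction in R2 was the opposite. This split was made after the values were seen. Of the 7 rows before SNHG14, 6 were called higher in R2 and 1 lower, with a median of 0.62. The symbol HERC2P2 stands on 2 of these rows, which went opposite ways in R2. One had a log2 fold change of 1.18 (mean 54.3 in R2 and 23.9 in control). The other was the lower row, at -0.78 (mean 0.747 in R2 and 1.63 in control). NIPA1, a magnesium transporter, stood at 40.5, 41.9, 39.1 and 44.2 in control, 36.3, 37.8, 31.6 and 41.3 in R1 and 56.2, 61.4, 63.2 and 76.1 in R2. CYFIP1, a subunit of the WAVE actin regulator, stood at 127, 133, 143 and 146 in control, 127, 129, 118 and 124 in R1 and 204, 225, 211 and 203 in R2. In both genes every R2 library was above all others. From HERC2 onward, 300 of 377 genes were called lower in R2 and 4 higher. HERC2 itself and the rows HERC2P2 and HERC2P3 are near-copies, so reads could have been split among them.

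**Figure D4:**
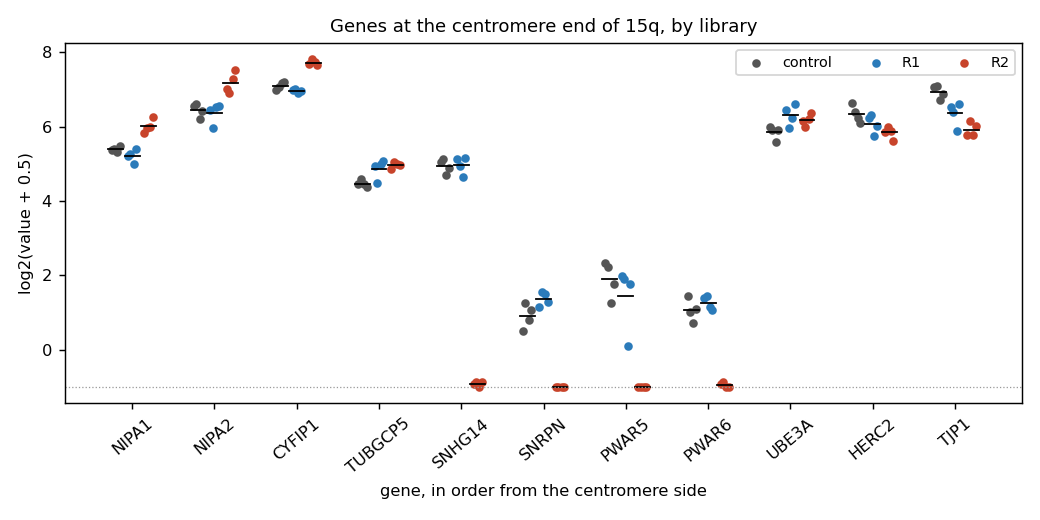
Values of 11 genes in order from the centromere side, as log2(value + 0.5), for each library of control, R1 and R2; short lines are group means and the dotted line is a value of 0. R2 lies above the other groups from NIPA1 to CYFIP1, at or next to 0 from SNHG14 to PWAR6, and at or under control from HERC2 on.

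The members are given next by role, and their counts stand beside 14.8% of all genes called lower and 13.6% called higher in R2, and 21.4% called lower in R1. Among the 7 members of the ubiquitin system, 6 were called lower in R2 and 3 in R1. HERC2, a ligase of the DNA damage response, ranged from 67.4 to 98.1 in control and 48.2 to 63.6 in R2. UBR1, which recognises destabilising N-terminal residues, ranged from 28.8 to 39.1 and 20.1 to 22.9. COPS2, a subunit of the COP9 signalosome that removes NEDD8 from cullins, stood at 92.9, 94.2, 81.2 and 87.9 in control, 62.6, 43.2, 62.4 and 77.4 in R1 and 49.8, 51.3, 50.9 and 52.2 in R2. Its R2 libraries were close together and all below control, and 1 R1 library lay under them. The deubiquitinases USP8, which acts on endosomal receptors, and USP3, which acts on histones, were at 59.0% and 67.5% of their control means in R2. TRIP4, of the ASC-1 complex that acts on stalled ribosomes and alkylated DNA, was at 50.8%, with 7.89 to 8.66 in R2 against 15.1 to 17.4 in control. In R1, USP8 was at 63.6% of control, and USP3 at 96.5%.

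Of 11 transcription and chromatin genes, 7 were called lower in R2 and 7 in R1. RFX7, a transcription factor of the RFX family, stood at 65.5, 57.4, 49.1 and 62.1 in control, 26.5, 24.4, 20.8 and 31.6 in R1 and 25.5, 21.1, 25.3 and 29.1 in R2. MORF4L1, a chromodomain subunit of the NuA4 acetyltransferase, stood at 172, 188, 185 and 204 in control, 106, 109, 122 and 116 in R1 and 86.3, 82.8, 94.2 and 97.2 in R2. Both were lower in every R1 and R2 library than in any control library, and for MORF4L1 all R2 libraries were also below R1. TCF12, a basic helix-loop-helix factor, stood at 71.5, 73.2, 66.1 and 69.6 in control, 52.3, 58.0, 44.6 and 61.1 in R1 and 42.0, 36.2, 38.3 and 40.9 in R2, in 3 ranges without overlap.

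RTF1, of the PAF1 elongation complex, was at 58.1% of its control mean in R2 and 69.2% in R1. RPAP1, which helps assemble RNA polymerase II, was at 57.0% and 63.6%, and SIN3A, the scaffold of a histone deacetylase complex, at 62.5% and 70.3%. PIAS1, a SUMO ligase, was the one member of this group that was lower in R1 (51.4%) than in R2 (61.0%). ZNF106, an RNA-binding zinc finger protein, was at 74.2% in R2 and was not called. CHD2, a chromatin remodeller, was at 89.3% with 24.9 to 40.5 in R2 against 30.1 to 38.2 in control.

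SMAD3 and KLF13 were the transcription factors that least resembled the arm. SMAD3, which carries the TGF-beta signal to the nucleus, stood at 195, 196, 187 and 177 in control, 209, 233, 139 and 149 in R1 and 177, 200.1, 145 and 161 in R2, and the 3 ranges overlapped. KLF13, a Krüppel-like factor, stood at 11.4, 14.2, 14.4 and 15.7 in control, 24.9, 41.0, 23.0 and 30.4 in R1 and 18.5, 16.7, 18.8 and 18.2 in R2. Every R2 library of KLF13 was above control and every R1 library above R2, although in R2 it was not called.

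All 6 genes of genome maintenance and cell division were called lower in R2, and 3 in R1. TP53BP1, which steers the repair of DNA double-strand breaks, stood at 95.4, 95.2, 93.4 and 86.9 in control, 62.9, 66.2, 57.0 and 58.0 in R1 and 45.01, 46.1, 41.3 and 38.9 in R2. The 3 groups did not overlap, with R1 between the others. TIPIN, which protects replication forks with TIMELESS, ranged from 18.2 to 30.8 in control and from 7.87 to 13.5 in R2. HAUS2, of the augmin complex that seeds spindle microtubules, was at 61.6% of control in R2 and 97.3% in R1. CDAN1, a histone chaperone partner altered in an inherited anaemia, was at 65.4% and 92.6%. ARPP19, an inhibitor of the phosphatase PP2A at mitotic entry, was at 71.7% and 74.2%, and CTDSPL2, a phosphatase, at 68.6% and 57.7%.

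Of 7 genes of the cytoskeleton and cell adhesion, 6 were called lower in R2 and NEO1 was higher. ANXA2, a calcium-dependent membrane and actin-binding protein, had the highest mean value of the members and stood at 1619, 1502, 1565 and 1458 in control, 1251, 998, 1638 and 1342 in R1 and 815, 887, 660.1 and 656 in R2. R1 overlapped control, with 1 library above it, and R2 was below both. TPM1, a tropomyosin that stabilises actin filaments, stood at 182, 167, 157 and 163 in control, 61.7, 50.7, 70.5 and 62.4 in R1 and 96.9, 63.9, 109 and 113 in R2. For TPM1 the order was different, with R1 the lowest in mean and R2 between R1 and control.

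TMOD3, which caps the slow-growing end of actin filaments, was at 49.6% of control in R2, and TJP1, the tight junction scaffold ZO-1, at 49.2%. MYO5A, the motor that carries melanosomes, was at 60.9%. MYO1E, a membrane-bound class I myosin, stood at 31.9, 42.1, 52.9 and 43.3 in control, 30.8, 55.6, 30.3 and 30.9 in R1 and 28.9, 35.2, 24.9 and 23.5 in R2. Its R2 and control libraries overlapped, and 1 R1 library stood far above the other three.

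NEO1, neogenin, is a receptor for netrins and repulsive guidance molecules. It stood at 3.01, 2.96, 3.13 and 3.62 in control, 6.75, 10.7, 6.11 and 7.48 in R1 and 17.1, 20.7, 22.1 and 25.5 in R2. The groups did not overlap, and the R2 mean was 671% of control where the R1 mean was 244%. In control NEO1 had the lowest level per length of all members, at 0.392 per kb of exon, and in R2 it reached 2.63 per kb.

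Of 9 genes of membrane traffic and organelles, 8 were called lower in R2 and 2 in R1, and the R1 share of 22.2% is near the 21.4% of all genes. SNX1, a sorting nexin that returns cargo from endosomes to the Golgi, stood at 108, 106, 118 and 108 in control, 88.6, 87.4, 93.8 and 89.9 in R1 and 61.0, 68.5, 44.8 and 42.8 in R2. Its groups did not overlap, and R2 was the lowest. CCPG1, a receptor for autophagy of the endoplasmic reticulum, was low throughout and stood at 4.49, 4.79, 5.47 and 5.88 in control, 2.79, 4.65, 2.32 and 2.56 in R1 and 2.76, 4.05, 1.90 and 2.39 in R2. EHD4, an endosomal ATPase, ranged from 46.4 to 64.1 in R2, 110.4 to 121 in R1 and 101 to 122 in control. For EHD4, R1 overlapped control and R2 was below both.

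SCAMP2, a carrier membrane protein of the secretory route, was at 51.6% of its control mean in R2 and 61.5% in R1. SNAP23, a SNARE of the plasma membrane, was at 62.0% and 89.2%. SPG11, spatacsin, which serves lysosome renewal, was at 58.5% and 80.4%, and DENND4A, an activator of RAB10, at 66.8% and 82.1%. CLN6, an endoplasmic reticulum protein of lysosomal enzyme export, was at 56.0% and 122%. Its R1 libraries stood at 57.3, 23.4, 65.4 and 54.9, against 31.8 to 54.0 in control and 21.2 to 26.0 in R2. R1 replicate 2 lay inside the R2 range, and CLN6 was not called in R1. VPS13C, a lipid transfer protein, stood at 18.2, 17.6, 15.9 and 20.4 in control, 20.4, 25.6, 10.7 and 16.6 in R1 and 15.6, 21.4, 14.4 and 14.5 in R2, and its groups overlapped.

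All 8 genes of proteases and protein maturation were called lower in R2, with a median log2 fold change of -1.05, and 4 were called lower in R1. SRP14, which with SRP9 binds one end of the signal recognition particle RNA, stood at 302, 303, 343 and 338 in control, 169.7, 156, 198 and 169.5 in R1 and 145, 181, 131 and 142 in R2. PPIB, a proline isomerase of the endoplasmic reticulum that serves collagen folding, stood at 299.7, 297, 389.7 and 326 in control, 219.9, 386, 348 and 259 in R1 and 162, 170.3, 145 and 133 in R2. SRP14 was low in both treated groups, while PPIB in R1 overlapped control and in R2 was below it. FURIN, the proprotein convertase of the Golgi, stood at 112, 140.0, 136 and 122 in control, 109, 138, 112 and 115 in R1 and 64.7, 49.1, 65.4 and 60.2 in R2.

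DPP8, a cytosolic dipeptidyl peptidase, stood at 59.2, 60.6, 48.2 and 57.5 in control, 44.3, 42.5, 38.9 and 54.9 in R1 and 25.2, 27.2, 25.7 and 28.1 in R2. ADAM10, a membrane protease that sheds surface proteins, stood at 65.2, 68.3, 69.2 and 81.7 in control, 57.4, 56.7, 43.1 and 56.2 in R1 and 46.8, 54.5, 43.9 and 43.9 in R2. FURIN and DPP8 were lower in every R2 library than in all libraries of the other groups, and ADAM10 was lower than control in every R1 and R2 library. PIGB, a mannosyltransferase of GPI anchor synthesis, stood at 9.78, 9.70, 9.90 and 9.61 in control, 8.20, 5.57, 6.80 and 8.56 in R1 and 5.12, 4.003, 4.21 and 4.82 in R2, in 3 ranges without overlap. SEC11A, a catalytic subunit of signal peptidase, was at 66.0% of control in R2 and at 145% in R1, with 54.8 to 70.5 in R1 against 37.8 to 45.8 in control. SERF2, a small protein linked to amyloid formation, was at 56.8% and 98.1%.

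Of 6 kinases, phosphatases and scaffolds, 5 were called lower in R2 and 1 in R1, and the R1 share of 16.7% is under the 21.4% of all genes. MAPKBP1, a scaffold of JNK signalling, stood at 55.9, 58.5, 58.9 and 54.8 in control, 60.01, 71.9, 49.5 and 54.1 in R1 and 27.4, 30.3, 26.1 and 25.2 in R2. R1 spread around control and R2 lay well under both. CSK, the kinase that restrains SRC, was at 62.3% of control in R2 and 98.2% in R1, and PTPN9, a tyrosine phosphatase, at 52.7% and 95.7%. AKAP13, an anchor of protein kinase A, was at 68.6% and 85.0%, and MTMR10, a myotubularin-like protein, at 64.8% and 59.1%. CSNK1G1, a casein kinase, stood at 25.7, 24.2, 19.3 and 19.9 in control, 23.6, 22.6, 18.9 and 23.0 in R1 and 20.0, 20.99, 21.03 and 25.2 in R2. Its means were 98.0% of control in R2 and 99.0% in R1, and the groups overlapped.

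The 3 genes of metabolism and iron were called lower in R2 and none in R1. IDH2, the mitochondrial isocitrate dehydrogenase that makes NADPH, stood at 6.25, 7.67, 9.80 and 10.03 in control, 4.08, 4.52, 12.8 and 10.8 in R1 and 1.16, 1.02, 2.93 and 2.48 in R2. It was the coding member with the lowest R2 level relative to control (22.5%), and in each of the 3 groups replicates 1 and 2 lay below replicates 3 and 4. ETFA, of the electron transfer flavoprotein, was at 54.9% of control in R2 and 85.5% in R1. IREB2, which controls translation of iron-handling transcripts, was at 58.4% and 86.6%. NOP10, a small protein of H/ACA particles that pseudouridylate RNA, was at 54.1% and 69.3%, and it had the highest level per length of the members in control, at 203 per kb of exon.

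AVEN, an inhibitor of cell death that binds BCL-XL and APAF1, stood at 23.7, 22.04, 24.3 and 23.5 in control, 23.2, 20.2, 33.8 and 29.1 in R1 and 8.49, 9.64, 9.36 and 7.94 in R2. It was the third lowest member in R2 by log2 fold change, at -1.36, and its R1 libraries spread around control.

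Members with a higher control level per kb of exon tended to have the lower log2 fold change in R2. Without SNHG14 this was a Pearson r of -0.45 and a Spearman rho of -0.48 over 59 genes, and with it -0.10 and -0.41 over 60. For gene length on the chromosome the values without SNHG14 were 0.33 and 0.38. These are descriptions across genes that share their 12 libraries, and the added 0.5 itself makes the log2 fold changes of low genes smaller. The control values also enter both the level per kb and the fold change, with opposite sign. That alone favours a negative correlation between them.

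Some members share bases with another listed or annotated gene. MTMR10 overlaps FAN1 over 24393 bases, TP53BP1 overlaps TUBGCP4 over 6711, SNAP23 overlaps LRRC57 over 4732 and PIAS1 overlaps CALML4 over 3143. Among the members, CCPG1 and PIGB share 410 bases, and SNAP23 and ZNF106 share 13. Without strand, reads of these stretches could have gone to either gene.

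Genes elsewhere whose products work with a member were examined next, because the selection did not use them. The list was drawn up by name with earlier results known, for 18 members that belong to a complex or have direct partners, and 79 of its 84 genes were listed. Of the 77 partners on other chromosomes, 9 fell and 7 rose in R2 (limma, adjusted p under 0.05), which is 11.7% and 9.09% beside 14.8% and 13.6% of all genes. Their median log2 fold change was -0.01. Both partners that lie on chromosome 15, the PAF1 complex subunits LEO1 and WDR61, were lower in R2, at -0.80 and -0.70.

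In the signal recognition particle, SRP14 was at -1.11 in log2 fold change while none of the 5 partners SRP9, SRP19, SRP54, SRP68 and SRP72 passed the test, with values from -0.10 to 0.30. For NOP10, the H/ACA partners DKC1, NHP2 and GAR1 lay between 0.06 and 0.13 and none passed. Signal peptidase partners of SEC11A lay between -0.22 and 0.14, with none passing. In the SIN3-HDAC complex 1 of 10 partners of SIN3A passed (SUDS3, -0.33), and in NuA4 2 of 11 partners of MORF4L1 did, EPC1 lower at -0.47 and TRRAP higher at 0.43. Partners of ETFA (ETFB and ETFDH), of RTF1 off the chromosome (PAF1, CTR9 and CDC73) and of TP53BP1 (RIF1 and MAD2L2) did not pass. A miss does not show that the partners were unchanged. Members were chosen as low in this comparison and partners were not, so a difference between them largely restates the selection.

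**Figure D5:**
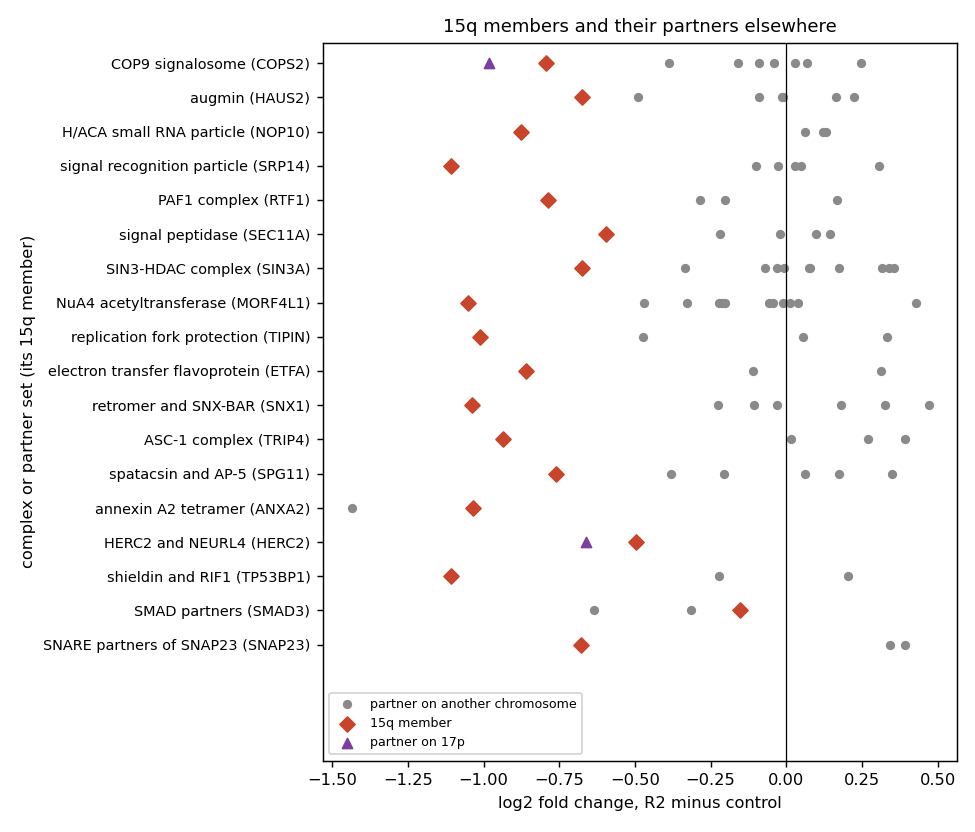
Log2 fold change of R2 minus control for 18 members with partners (red diamonds) and for their partners on other chromosomes (grey circles, or purple triangles for partners on 17p), 1 row for each complex or partner set. Most members lie left of their partners; in the rows of COPS2, ANXA2, HERC2 and SMAD3 a partner lies further left than the member. Members were chosen as low in this comparison and partners were not, so their placement largely restates the selection.

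Where partners fell, some lay in other regions that were also low. In the COP9 signalosome COPS3, on 17p, stood at 128, 121, 109.9 and 111 in control, 72.0, 46.4, 96.2 and 90.4 in R1 and 56.3, 53.0, 63.3 and 64.5 in R2, and every R1 and R2 library was below control. Its log2 fold change in R2 was -0.98 (SE 0.18, adjusted p = 9.35e-04, limma). NEURL4, the partner of HERC2 and also on 17p, fell by 0.66 on the log2 scale in R2 (adjusted p = 2.72e-04, limma), from 31.8 ± 2.14 to 19.9 ± 1.29 (SD, n = 4). Other signalosome subunits except COPS7A (chromosome 12, -0.39) did not pass. TIMELESS, the partner of TIPIN and also on chromosome 12, was at -0.47 (adjusted p = 0.0111, limma).

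S100A10, which joins ANXA2 in a tetramer, lies on chromosome 1 and stood at 121, 149, 268 and 228 in control, 184, 232, 262 and 189 in R1 and 68.1, 149, 46.4 and 42.9 in R2. R2 replicate 2 lay inside the control range and the other three R2 libraries were below it. The log2 fold change was -1.43 (SE 0.33, adjusted p = 0.00523, limma), while ANXA2 was at -1.04. SMAD2 on chromosome 18, which acts with SMAD3, was lower in all R1 and R2 libraries than in control, at 118 ± 13.3 in control, 76.6 ± 15.7 in R1 and 75.4 ± 1.09 in R2 (SD, n = 4; adjusted p = 0.00248 in R2, limma). SNX2, partner and closest paralog of SNX1, was higher in all R2 libraries, at 79.0 ± 7.31 against 56.8 ± 3.34 in control (SD, n = 4; log2 fold change 0.47, adjusted p = 0.00239, limma).

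Several other calls depended on single libraries. HAUS1, of augmin, was at -0.49 and was not called without R2 replicate 2, control replicate 1 or control replicate 2. SUDS3 was not called without control replicate 3 or 4. Of the 7 partners that rose, SNX2 alone was called in all 20 alternative settings, and the calls of TRRAP, ASCC2 (0.27), ASCC3 (0.39), ZFYVE26 (0.35), STX4 (0.34) and VAMP3 (0.39) were each lost when single libraries were left out. ASCC2 and ASCC3 are partners of TRIP4, ZFYVE26 of SPG11, and STX4 and VAMP3 of SNAP23.

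The closest paralogs of members on other chromosomes were also examined. Of 48 on the list, 38 were listed and 36 lay off chromosome 15, and of these 4 fell and 4 rose in R2 (11.1% each, beside 14.8% and 13.6% of all genes), with a median log2 fold change of 0.09. TPM2, the paralog of TPM1, stood at 137, 154, 161 and 138 in control, 173, 197, 250.5 and 178 in R1 and 273, 313, 253 and 243 in R2. It was higher in 4 of 4 R2 libraries, with a log2 fold change of 0.87 (SE 0.13, adjusted p = 1.46e-04, limma), where TPM1 was at -0.83. SNAP29, a paralog of SNAP23, was at 53.8 ± 4.39 in R2 and 37.4 ± 1.93 in control (SD, n = 4; adjusted p = 0.00105, limma), and every R2 library was above every control library.

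Paralogs that fell were MYO1C, SMAD2, EHD2 and ENSA. MYO1C lies on 17p and was at 394 ± 17.7 in control, 193 ± 14.05 in R1 and 173 ± 25.3 in R2 (SD, n = 4; adjusted p = 1.95e-06 in R2, limma). EHD2, on chromosome 19, was at -1.10 (adjusted p = 0.0081, limma), and its R2 replicate 2 lay inside the control range. ENSA, the paralog of ARPP19, was at -0.30 (adjusted p = 0.0429, limma), and its call was lost in 10 of 20 alternatives, among them the omission of any 1 of the R2 or control libraries. IDH1, the cytosolic counterpart of IDH2, was at 0.06, ADAM17 at -0.01 and DPP9 at -0.16, none of which passed the test.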

How the data were processed

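RNA of 12 libraries of WM1366 (4 each of R1, R2 and control) was measured by RNA sequencing. Per the submitters' processing notes, STAR, edgeR and GRCh38 were used; versions and the counting rule are not given in the sources used here. The deposited files hold 1 normalised signal value for each of 12931 rows (12929 symbols), scaled by the authors to library size. Dividing by the smallest step of a library gave whole reads (tolerance 0.001) for 100% of its values. The unit differed from the counts assumed, and limma replaced the edgeR test.

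The members, lists and naming rule were chosen with earlier results of these data known. Values were compared as log2(value + 0.5) with limma 3.58.1 (empirical Bayes with a trend) in R 4.3.3, in 1 fit of 12 libraries with 3 group means, two-sided and adjusted by Benjamini-Hochberg over 12931 rows. A gene was called at an adjusted p under 0.05, with no filter. On the recovered reads, edgeR 4.0.16 called 3564 genes in R2 against control, 5645 in R1 against control and 5988 in R2 against R1, and limma shared 3502, 5525 and 5881 of these calls with their direction. DESeq2 1.42.0 was a further alternative, as were pseudocounts of 0.1 and 1, a mean of at least 5, median centring, a fit of the 2 groups compared, a replicate block and leaving out each library. The fit was tested on simulated data.

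Genes were placed by RefSeq GRCh38.p14 symbols (11420) or synonyms (793), and 718 rows were not placed. Exon lengths came from GENCODE. Library values are given in all libraries for the 12 lowest and 6 highest members in R2, the members of the 5 Mb window lowest in R1, the 3 with the highest mean, and SNHG14 and UBE3A; the rule also took the partners and paralogs called in R2, the imprinted genes, and the 5 lowest and 5 highest other genes of chromosome 15 whose higher group had a mean of 5 or more. COPS2, TPM1 and CYFIP1 were added after their values were seen. Some genes that the rule took are not reported here. Intervals are 95% Clopper-Pearson, and 3 reads correspond to values of 0.0728 to 0.158 per library; both cover counting error only.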

Additional observations from a re-analysis of the deposited data

Results flagged for a closer look

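Groups of 4 libraries were searched for a library far from the others, by Dixon's ratio above its 95% critical value. Of 192 groups (60 members and 4 whole-library measures of chromosome 15, in 3 groups each), 7 were found, and chance gives about 1 in 20. In R1 replicate 2, MYO1E was 55.6 where the other R1 libraries were 30.3 to 30.9, and TIPIN was 8.73 where they were 17.2 to 17.99. In R1 replicate 3, ADAM10 was 43.1 against 56.2 to 57.4, and SCAMP2 was 64.8 against 54.5 to 56.2. In R2 replicate 2, VPS13C was 21.4 against 14.4 to 15.6. In control replicate 2, CHD2 was 30.1 against 37.4 to 38.2, and in control replicate 3, CTDSPL2 was 34.6 against 44.6 to 45.1.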

How the results depend on the processing

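No median changed direction under the alternatives. The same held for called members in R2 and R1 against control, and for called partners and paralogs in R2 against control. The direction of other called genes was not checked under all alternatives. With only the 2 groups compared in the fit, the number of members called higher in R2 was 3 in place of 1, partners that rose 13 in place of 7 and paralogs that rose 7 in place of 4; the cause was not tested. Members called lower in R2 numbered 51 by edgeR, 53 by DESeq2 and 50 after median centring (without AKAP13 and MYO1E).

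Leaving out single libraries gave, for R2 against control, 48 to 53 members lower, 1 to 3 higher and a median of -0.80 to -0.74. For R1 it gave 20 to 27 lower, 3 to 5 higher and a median of -0.30 to -0.24, and for R2 minus R1 29 to 35, 2 to 3 and -0.45 to -0.38. Over chromosome 15, 272 to 315 genes were lower and 9 to 14 higher in R2 (median -0.77 to -0.73), and 108 to 140 and 37 to 50 in R1 (median -0.25 to -0.21). Partners that fell ranged from 8 to 11 and those that rose from 2 to 13, paralogs from 3 to 4 and from 4 to 6. Over all genes, 1505 to 2147 fell and 1290 to 2076 rose in R2, 2400 to 2857 and 2524 to 3020 in R1, and 2717 to 3129 and 2528 to 3042 in R2 minus R1.

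Replicate numbers were not taken to pair the libraries: correlations of same-numbered libraries ran from -0.31 to 0.39 in all. Between R1 and R2 they were positive (0.07 to 0.13), and 3 of 4 R1 libraries correlated best with the R2 library of their own number. With a replicate block, 52 members were lower in R2 and 26 in R1, and 33 were lower and 2 higher in R2 minus R1. Depth limits SNHG14, SNRPN, PWAR5 and PWAR6 in R2, where 0 to 3 reads were found. Among the limits, members and their arm were selected on the comparisons described, and the labels do not separate R1 from R2. For genes that kept part of their level, a loss in some cells and a lower level in all cells cannot be told apart.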

Other observations

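Among genes of chromosome 15 outside the members, the 5 lowest and the 5 highest in R2 were looked at. ANPEP, the surface aminopeptidase CD13, stood at 48.9, 51.8, 88.5 and 81.0 in control, 21.4, 46.9, 25.9 and 24.8 in R1 and 1.95, 3.44, 6.27 and 6.43 in R2. LOXL1, a lysyl oxidase that crosslinks elastin, stood at 17.4, 23.4, 22.2 and 21.6 in control, 7.69, 9.74, 11.5 and 8.59 in R1 and 1.40, 1.12, 2.65 and 1.47 in R2. FES, a tyrosine kinase that lies next to the member FURIN, stood at 9.74, 9.74, 13.1 and 10.7 in control, 11.96, 11.9, 13.02 and 11.3 in R1 and 0.698, 0.652, 1.19 and 1.15 in R2. In all 3 genes every R2 library was below all others, and for ANPEP and LOXL1 every R1 library was also below control. C15orf48 and C15orf62 were the other genes among the 5 lowest, at log2 fold changes of -3.11 and -2.80 in R2 and -2.09 and -2.29 in R1.

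Of the 5 highest, NIPA1, NIPA2 and 1 of the 2 rows of HERC2P2 lie on the centromere side of SNHG14. The other HERC2P2 row was lower in R2, at a log2 fold change of -0.78. STARD9, a kinesin, stood at 4.97, 4.83, 4.06 and 2.78 in control, 8.03, 11.3, 6.53 and 9.14 in R1 and 10.4, 9.36, 10.5 and 9.50 in R2, so that both R1 and R2 were above control. THBS1, thrombospondin 1, stood at 408, 265, 297 and 276 in control, 238, 151, 152 and 167 in R1 and 521, 265, 951 and 819 in R2, where R2 overlapped control and R1 was below it. These genes lie on the arm from which the members were chosen, so no test is given for them.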
